A study of Homo sapiens with 3 samples.

Results

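Aldehyde dehydrogenases are enzymes that oxidise aldehydes to carboxylic acids, and 10 genes of the family were followed here by their symbols, of 56632 gene IDs in the tables. The members were chosen by name and all 10 were found, each under 1 Ensembl gene ID. RNA had been sequenced from MCF10Ca1h, an established human breast cancer line derived from MCF10A epithelial cells, with 1 library for each of 3 groups. The GSK484 library came from cells given that PADI4 inhibitor for 72 h. The CON library came from cells that received the study's control compound, also for 72 h, and the NT library from cells with no treatment, for which the labels give no time. All 3 came from the same line, grown in medium with 5% horse serum. The control compound is named GSK107 in the labels' treatment text and GSK106 on its deposited table, and no dose is given. Total expected counts, the estimated reads of all genes, were 77220120 in the GSK484 library, 92980847 in the CON library and 70555229 in the NT library. With no replicates, every difference below lies between single libraries. Its interval covers counting error only, and spread between cultures could not be measured.

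The family works by passing electrons from an aldehyde to NAD or NADP, which removes reactive aldehydes and, in the ALDH1A enzymes, makes the hormone retinoic acid from retinaldehyde. In breast tissue and breast cancer, high enzyme activity of the family, read by flow cytometry with a fluorescent substrate, is widely used to mark stem and progenitor cells. ALDH1A1 and ALDH1A3 are the isoforms most often named as sources of that activity. RNA levels do not measure this activity. The series title places PADI4, an enzyme that converts protein arginine to citrulline, in the question of breast cancer stem cells.

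The 3 retinaldehyde dehydrogenase genes stood far apart in level, so the sequences around their starts are shown. Each is a RefSeq window on GRCh38.p14 of 250 bases before to 50 bases after an annotated start, read on the gene's strand. Capitals mark every CG pair.
ALDH1A1: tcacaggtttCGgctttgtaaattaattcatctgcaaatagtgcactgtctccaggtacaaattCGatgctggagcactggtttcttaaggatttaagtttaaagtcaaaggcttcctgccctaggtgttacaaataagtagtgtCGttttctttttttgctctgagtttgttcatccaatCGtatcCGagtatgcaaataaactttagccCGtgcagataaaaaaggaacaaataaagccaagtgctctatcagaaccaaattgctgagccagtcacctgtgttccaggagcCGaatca
ALDH1A2: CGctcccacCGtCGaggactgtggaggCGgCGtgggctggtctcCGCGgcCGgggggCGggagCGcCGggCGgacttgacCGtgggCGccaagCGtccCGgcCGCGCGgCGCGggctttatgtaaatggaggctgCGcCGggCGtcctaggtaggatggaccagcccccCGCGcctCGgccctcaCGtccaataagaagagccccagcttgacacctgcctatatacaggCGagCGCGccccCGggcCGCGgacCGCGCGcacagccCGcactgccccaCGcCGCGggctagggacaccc
ALDH1A3: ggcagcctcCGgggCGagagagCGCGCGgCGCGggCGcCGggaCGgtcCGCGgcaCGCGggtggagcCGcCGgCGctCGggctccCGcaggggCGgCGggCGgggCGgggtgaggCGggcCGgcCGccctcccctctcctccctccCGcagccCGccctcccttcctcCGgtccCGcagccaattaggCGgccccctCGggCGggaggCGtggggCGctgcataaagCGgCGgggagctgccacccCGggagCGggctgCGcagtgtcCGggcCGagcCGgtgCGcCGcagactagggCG
The windows lie at chr9:72953004-72953303 (minus strand), chr15:58065662-58065961 (minus strand) and chr15:100879581-100879880 (plus strand). The ALDH1A1 window had 40.3% G or C and 7 CG pairs. The ALDH1A2 window had 74.0% and 41 pairs, and the ALDH1A3 window 81.7% and 46 pairs. The median of all 35116 RefSeq windows was 58.7% and 14 pairs. A second annotated ALDH1A2 start had 42.7% G or C and 1 CG pair. The windows of ALDH1B1, ALDH3A2, ALDH3B1 and ALDH7A1 had between 4 and 27 pairs.

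Windows were found for 7 of the 10 members, 10 in all. None was available for ALDH2, ALDH3A1 or ALDH3B2, so these genes were not searched. The motif GCGTG, the core bound by the aryl hydrocarbon receptor, was searched on both strands and is held by 36.5% of all windows. It occurred 2 times each in the printed ALDH1A2 and ALDH1A3 windows and in the second ALDH3A2 window, and not in the other 7. The motif TGACNNNGC, the core of the NRF2 element, is held by 13.3% of windows, and AGGTCA, a nuclear receptor binding motif, by 13.8%. Neither occurred in a member's window on either strand. These matches describe letters only.

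ALDH1A3 (ENSG00000184254), a cytosolic retinaldehyde dehydrogenase, carried most of the family's RNA. Its level was 1603 CPM in GSK484, 1656 CPM in CON and 1746 CPM in NT, where CPM is the expected count scaled to library size, after TMM, a trimmed-mean factor for library composition. Its deposited TPM, a level per effective length, was 581.4, 566.7 and 639.5 in the same order of libraries. It thus stood at place 240 in GSK484, 239 in CON and 228 in NT among all genes by TPM. The single ALDH1A3 gene held 71.9% of the 10 members' summed TPM in GSK484, 72.4% in CON and 73.1% in NT. Its share of their counts was 80.6% (GSK484), 80.7% (CON) and 81.4% (NT).

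ALDH1A1 (ENSG00000165092), the isoform whose antibody staining is often used for breast stem cells, was low in every library. It had 154 counts in GSK484, 197 counts in CON and 141 counts in NT, which is 1.98, 2.16 and 1.98 CPM. In the same order its TPM was 1.20, 1.21 and 1.21. Per effective length, ALDH1A3 was 485.0 times as abundant as ALDH1A1 in GSK484, 467.0 times in CON and 528.1 times in NT. ALDH1A1 made up 0.123% of the counts of both genes in GSK484 (95% Clopper-Pearson interval 0.104% to 0.144%), 0.130% in CON (0.113% to 0.150%) and 0.113% in NT (0.0953% to 0.133%). These intervals overlap, so a shift between both retinaldehyde dehydrogenases was not detectable at this depth.

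ALDH1A2 (ENSG00000128918), the retinaldehyde dehydrogenase known from embryonic development, had 4 counts in GSK484, 7 counts in CON and 2 counts in NT. ALDH2 (ENSG00000111275), the mitochondrial enzyme of acetaldehyde breakdown, had 2 counts in GSK484, 1 count in CON and 7 counts in NT. Both stayed below 0.1 CPM in every library, and below 1 CPM no gene was compared by the rules used here. The ALDH1A2 levels overlap within their counting intervals, with a log2 fold for GSK484 against CON of -0.53 (interval -2.80 to 1.40). For ALDH2 against NT, the log2 ratio of the CPM, with no prior count, was -1.94 for GSK484 (interval -5.24 to 0.46) and -3.16 for CON (interval -8.66 to -0.20). Both values rest on at most 7 counts a library. Acetaldehyde can also be oxidised in mitochondria by ALDH1B1 (ENSG00000137124), which was well expressed, at 91.0 CPM in GSK484, 89.0 CPM in CON and 87.2 CPM in NT.

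**Figure D1:**
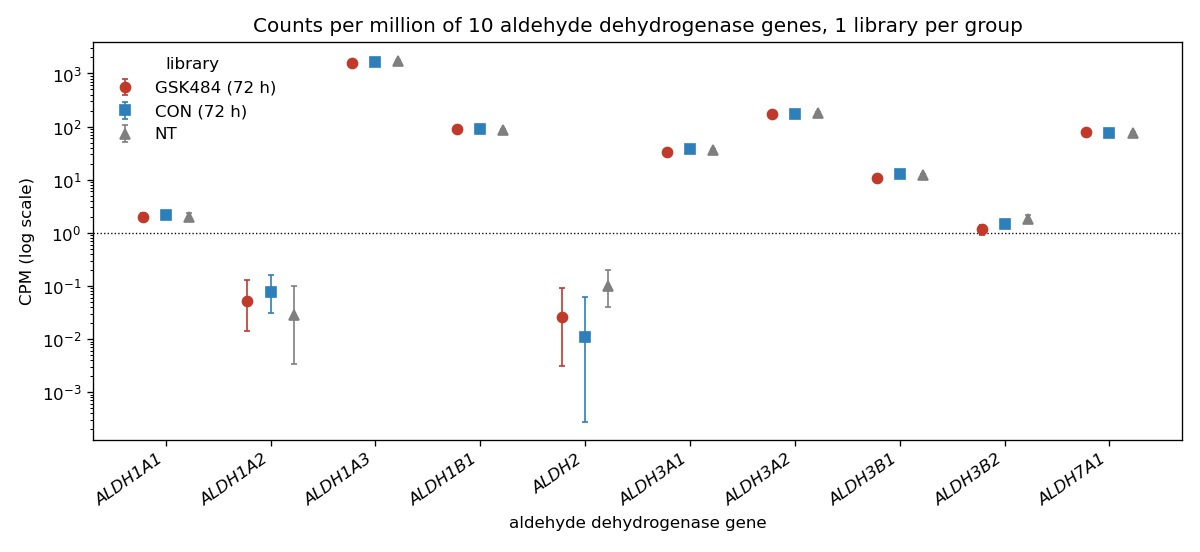
CPM of the 10 genes on a log axis, 1 symbol per library, with 95% Poisson intervals of the count and a dotted line at 1 CPM. ALDH1A3 lies at 1603 to 1746 CPM, ALDH1A2 and ALDH2 lie under 0.1 CPM, and the other 7 genes lie between 1.16 and 182.7 CPM.

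Among the class 3 enzymes, ALDH3A2 (ENSG00000072210) was the most abundant. It oxidises long-chain fatty aldehydes at the endoplasmic reticulum, and its loss causes Sjögren-Larsson syndrome. Its level was 171.6 CPM in GSK484, 175.9 CPM in CON and 182.7 CPM in NT. ALDH3A1 (ENSG00000108602), a detoxifying enzyme abundant in the cornea and known as a target of the aryl hydrocarbon receptor, was at 32.6 CPM in GSK484, 38.7 CPM in CON and 36.1 CPM in NT. ALDH3B1 (ENSG00000006534), which acts on aldehydes from lipid peroxidation, was at 10.9 CPM in GSK484, 12.6 CPM in CON and 12.1 CPM in NT. For both ALDH3A1 and ALDH3B1 the GSK484 library was the lowest of the 3 in CPM and in TPM, while the highest was CON in CPM and NT in TPM. ALDH3B2 (ENSG00000132746), a close relative of ALDH3B1, was at 1.16 CPM in GSK484, 1.46 CPM in CON and 1.82 CPM in NT. ALDH7A1 (ENSG00000164904), or antiquitin, works in lysine breakdown and is the gene of pyridoxine-dependent epilepsy. It was level across libraries, at 77.5 CPM in GSK484, 77.1 CPM in CON and 76.9 CPM in NT.

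Levels per effective length gave the same first 6 places in all 3 libraries. They ran from ALDH1A3 through ALDH3A2, ALDH7A1, ALDH1B1 and ALDH3A1 to ALDH3B1. In GSK484 the TPM of the genes after ALDH1A3 was 82.4 for ALDH3A2, 75.0 for ALDH7A1, 36.9 for ALDH1B1, 25.8 for ALDH3A1 and 5.08 for ALDH3B1. ALDH1A1 and ALDH3B2 followed at 1.20 and 1.01 TPM, and swapped places in NT, at 1.21 and 1.22 TPM. Counting intervals of the levels per length overlap between these 2 genes in GSK484 and NT, but not in CON, where ALDH1A1 was at 1.21 TPM and ALDH3B2 at 0.78 TPM. ALDH1A2 and ALDH2 were last, with overlapping intervals in every library. In CON the intervals of ALDH3B2 and ALDH1A2 also overlap, and in GSK484 and NT the last pair lies apart from the genes before it. The neighbours among the first 6 places, and ALDH3B1 and the gene after it, have intervals that do not overlap.

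Set against CON, the GSK484 library held slightly less RNA of several members, and by small amounts. None of the 8 members that reached 1 CPM differed by 2-fold, where 0.470% of 13199 genes did so beyond counting error. Beyond counting error means that the 95% interval of the log2 fold leaves out 0. Lower by that criterion were 4 of the 8, ALDH1A3, ALDH3A1, ALDH3A2 and ALDH3B1, or 27.4% of all genes compared, and 0 were higher, against 26.9%. With total counts alone, 2 were lower (ALDH3A1 and ALDH3B1) and 1 higher (ALDH1B1, at 0.07). DESeq2 size factors gave 3 lower, without ALDH3A2, and 0 higher. After removal of the trend that the log2 folds of coding genes showed on GC and effective length, 3 were lower, without ALDH3A2, and 2 higher, ALDH1B1 and ALDH7A1. With a minimum absolute log2 fold of 0.32 as well, 0 of the 8 were called beyond counting error in either direction, against 13.5% of all genes. The members' median log2 fold was -0.09, and that of all genes compared -0.01. Their median absolute log2 fold was 0.09, and that of all genes compared 0.11. With groups of 1 bulk library, fewer expressing cells and less RNA per cell cannot be told apart.

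ALDH3A1 showed the largest difference from CON among the 4 members beyond counting error, 1.19-fold lower in GSK484 (log2 fold -0.25, interval -0.32 to -0.17). Of the 13199 genes compared, 8.05% had a lower log2 fold. ALDH3B1 was 1.15-fold lower (log2 fold -0.20, interval -0.33 to -0.08). For these genes the log2 fold was below 0 under all 6 scalings or units tried, from -0.29 to -0.15 for ALDH3A1 and from -0.25 to -0.08 for ALDH3B1. ALDH1A3 (log2 fold -0.05, interval -0.06 to -0.04) and ALDH3A2 (log2 fold -0.04, interval -0.07 to -0.0025) were within 1.03-fold of CON. With deposited TPM both were above 0, at 0.04 and 0.10, where the median of all genes compared was 0.10. Between TMM-scaled CPM and TPM that median moved by 0.10. With total counts alone ALDH3A2 was also above 0, at 0.0043.

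Within counting error of CON were ALDH1A1 (log2 fold -0.13, interval -0.44 to 0.18), ALDH1B1 (0.03, interval -0.02 to 0.08) and ALDH7A1 (0.01, interval -0.04 to 0.06). With the GC and length trend removed, ALDH1B1 (0.05, interval 0.0042 to 0.10) and ALDH7A1 (0.08, interval 0.03 to 0.13) were above CON beyond counting error. ALDH3B2 was within it, at -0.33 (interval -0.74 to 0.06). Its deposited TPM had the other order, at 1.01 in GSK484 and 0.78 in CON. The effective length that the tables give it was 1340.5 bases in GSK484, 2027 bases in CON and 1761 bases in NT, so its level per length and its count moved in opposite directions. For ALDH1A1 the effective length was 1930 bases in GSK484, 1926 bases in CON and 1919 bases in NT.

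**Figure D2:**
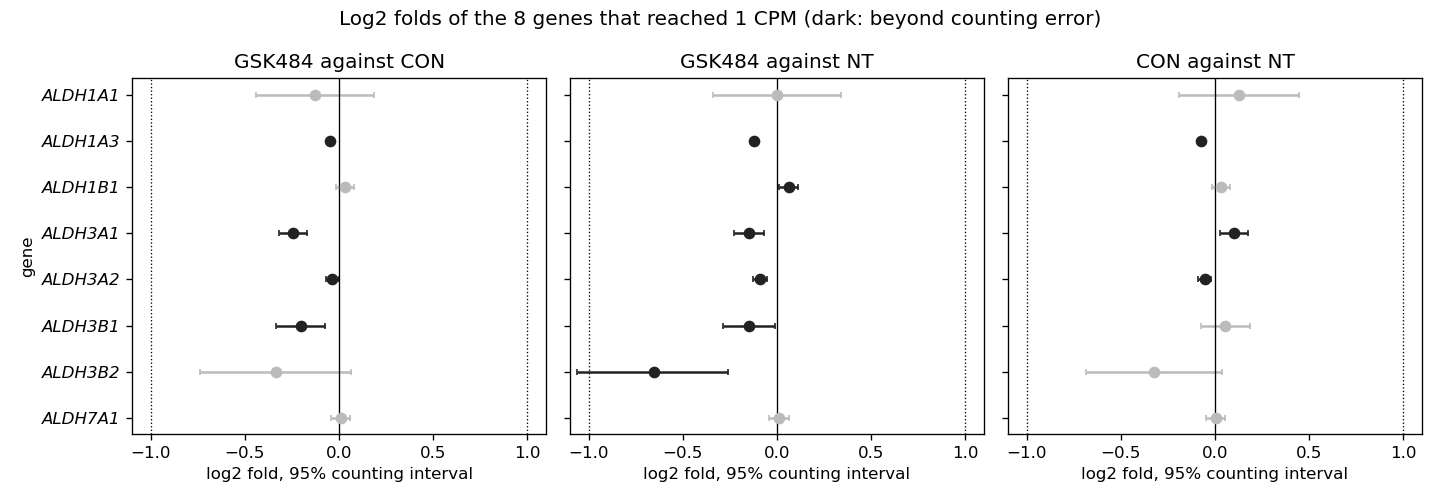
Log2 folds of the 8 genes that reached 1 CPM in the 3 comparisons, with 95% counting intervals, dark where the interval leaves out 0 and dotted lines at 2-fold. ALDH3A1 lies at -0.25 against CON and -0.15 against NT, and ALDH3B2 lies farthest from 0, at -0.66 for GSK484 against NT.

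ALDH3A1 and ALDH3A2 lie on chromosome 17 with 1 protein-coding gene between them in RefSeq's order, and their ratio within a library is free of the scaling. ALDH3A1 held 16.0% of the counts of both in GSK484 (Clopper-Pearson interval 15.4% to 16.5%), 18.0% in CON (17.5% to 18.6%) and 16.5% in NT (15.9% to 17.1%). The GSK484 and CON intervals do not overlap, while those of GSK484 and NT do. So the balance of their counts differed between GSK484 and CON beyond counting error. Which library stood apart depended on the processing. With the GC and length trend removed, ALDH3A1 in GSK484 was at -0.20 against CON and -0.25 against NT, and ALDH3A2 at -0.03 and -0.05, while CON against NT was -0.06 for ALDH3A1 and -0.02 for ALDH3A2. ALDH3B1 and ALDH3B2 lie on chromosome 11 with 2 protein-coding genes between them. ALDH3B2 held 9.58% of the counts of that pair in GSK484 (7.78% to 11.6%), 10.4% in CON (8.78% to 12.2%) and 13.1% in NT (11.1% to 15.4%). All 3 of these intervals overlap one another, GSK484 and NT only at their ends. Such overlap does not show that the shares were equal, and their differences were not tested.

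**Figure D3:**
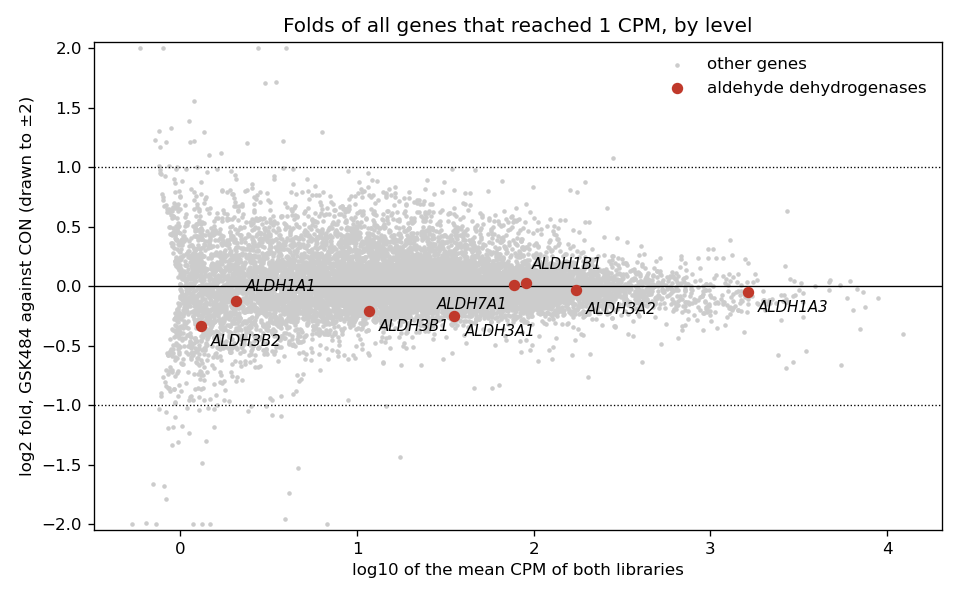
Log2 fold of GSK484 against CON (points past 2 drawn at 2) by log10 of the mean CPM of both libraries, for all genes that reached 1 CPM in either, with the aldehyde dehydrogenases in red. The 8 members lie between -0.33 and 0.03, inside the cloud of other genes at their level.

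Set against NT, GSK484 was lower beyond counting error in 5 of the 8 members and higher in 1, where 29.5% of 13209 genes were lower and 27.3% higher. The comparison uses the same GSK484 library as the one against CON. None reached 2-fold, against 0.553% of all genes. ALDH3B2 was 1.58-fold lower (log2 fold -0.66, interval -1.06 to -0.26), the 1 member past an absolute log2 fold of 0.32, against 12.5% of all genes in either direction. It rests on 90 counts in GSK484 and 130 in NT, and its TPM gave a smaller log2 fold of -0.25. ALDH1A3 was 1.09-fold lower (-0.12, interval -0.13 to -0.11), ALDH3A1 1.11-fold lower (-0.15, interval -0.23 to -0.07) and ALDH3B1 1.11-fold lower (-0.15, interval -0.29 to -0.01). ALDH3A2 was 1.06-fold lower (-0.09, interval -0.13 to -0.06). ALDH1B1 was 1.04-fold higher (0.06, interval 0.01 to 0.11). ALDH1A1 (interval -0.34 to 0.34) and ALDH7A1 (interval -0.04 to 0.06) were within counting error. These signs held under every scaling and unit tried for the members beyond counting error. The call of ALDH3B1 did not, as it was within counting error with upper-quartile factors, at -0.11.

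CON against NT shows how far the control compound's library lay from untreated cells, and again shares both libraries with the comparisons above. Of the 8 members, 2 were lower beyond counting error and 1 higher, where 29.4% of 13221 genes were lower and 35.5% higher. None was called at 2-fold, against 1.68% of all genes, and none at the minimum of 0.32, against 21.5%. ALDH3B2 had the value farthest from 0 of the 8, at -0.32 (interval -0.68 to 0.04), and after removal of the trend it was called lower, at -0.45 (interval -0.81 to -0.09). ALDH1A3 was lower (log2 fold -0.08, interval -0.09 to -0.07) and so was ALDH3A2 (-0.05, interval -0.09 to -0.02), but with upper-quartile factors these were 0.0091 and 0.03. ALDH3A1 was higher (0.10, interval 0.03 to 0.17), but at -0.02 with TPM and -0.06 with the GC and length trend removed. Removing that trend also put ALDH3A2 within counting error and ALDH7A1 below NT beyond it, at -0.07 (interval -0.12 to -0.02). ALDH3A1 was thus lower in GSK484 than in both other libraries, while its place in CON relative to NT depended on the unit.

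**Figure D4:**
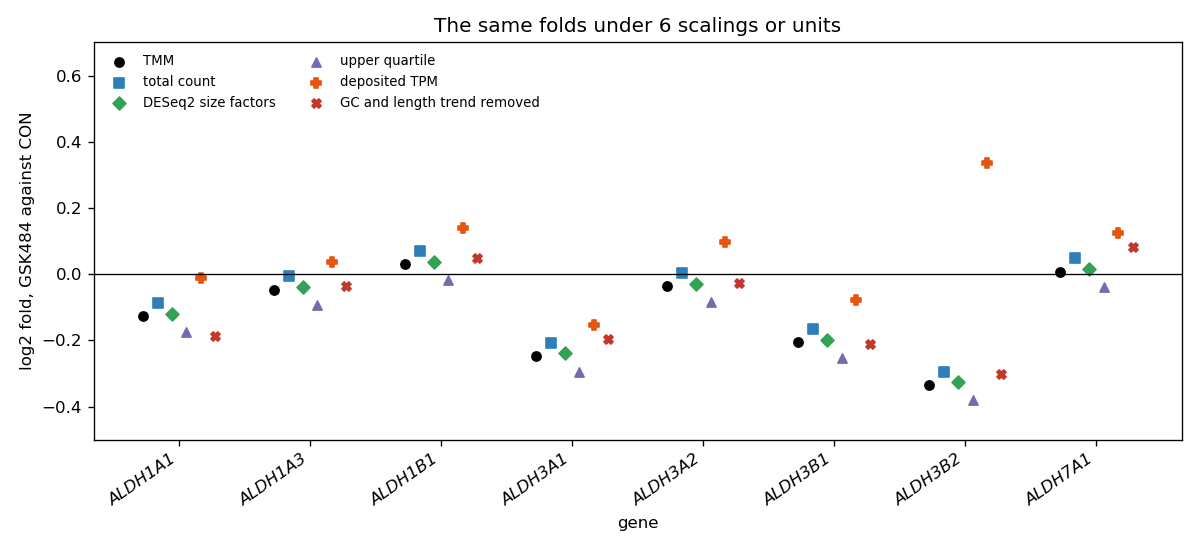
Log2 fold of GSK484 against CON for the 8 genes under 6 scalings or units, 1 symbol each. ALDH3A1 and ALDH3B1 stay below 0 under all 6, ALDH1A3 and ALDH3A2 lie at -0.09 to 0.10, and ALDH3B2 changes to 0.33 with deposited TPM.

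Summed over the 10 members, the family had 1990 CPM in GSK484, 2053 CPM in CON and 2145 CPM in NT. The sum was lower in GSK484 than in CON by a log2 fold of -0.04 (interval -0.05 to -0.03) and lower than in NT by -0.11 (interval -0.12 to -0.10). Without ALDH1A3 the sums were 386.8 CPM in GSK484, 397.0 CPM in CON and 398.9 CPM in NT. Summed TPM was 808.9 for GSK484, 782.3 for CON and 874.6 for NT, so the direction against CON depends on the unit, while NT was highest in both.

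Counts that are not whole show where the quantification divided reads between genes. Among the members, the counts of ALDH1A3 and ALDH7A1 were not whole within 0.005, and those of the other 8 were whole in all 3 libraries. In GENCODE release 29 transcripts, words of the read length of 125 bases were compared. ALDH1A3 shared 1164 of its 5887 words with the opposite strand of ALDH1A3-AS1, an antisense RNA gene. ALDH7A1 shared 31 of its 20686 with ALDH7A1P1, a processed pseudogene. ALDH1A3-AS1 was at 36.6 CPM in GSK484, 35.4 CPM in CON and 40.2 CPM in NT, with a log2 fold for GSK484 against CON of 0.05 (interval -0.03 to 0.12). It reached at most 2.30% of the ALDH1A3 count. Since the strand setting of the counting is not given in the sources used here, reads of this pair cannot be told apart. ALDH7A1P1 had 20.3, 16.2 and 17.2 counts in GSK484, CON and NT, at most 0.336% of the ALDH7A1 count. Words were also shared by ALDH1A2 with AQP9 and with the antisense gene ALDH1A2-AS1, and by ALDH2 with an overlapping protein-coding gene, all at 0 counts. The other 6 members shared no such word with another gene.

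The remaining aldehyde dehydrogenase genes lay on both sides of CON. Of 9 genes, 7 reached 1 CPM, and GSK484 was higher in 3 and lower in 1 of them beyond counting error, where 26.9% of all genes compared were higher and 27.4% lower. Their median log2 fold was 0.0025. ALDH9A1, an aminobutyraldehyde dehydrogenase of carnitine synthesis, was at 62.4 CPM in GSK484, 68.9 CPM in CON and 72.7 CPM in NT (log2 fold against CON -0.14, interval -0.20 to -0.09). ALDH18A1, the proline synthesis enzyme, was at 118.2 CPM in GSK484, 112.3 CPM in CON and 122.3 CPM in NT. GSK484 was above CON (0.07, interval 0.03 to 0.11) and below NT (-0.05, interval -0.09 to -0.0063). The trend removed, it was within counting error of NT (interval -0.06 to 0.02). ALDH5A1, which oxidises succinate semialdehyde, was at 9.87 CPM in GSK484 and 8.89 CPM in CON (0.15, interval 0.01 to 0.30), with counts that were not whole. With the trend removed its interval was -0.0082 to 0.28, within counting error.

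Genes that supply, bind and read the ALDH1A products were mostly present. Of 27 retinoid genes, 18 reached 1 CPM, of which GSK484 was lower than CON in 8 and higher in 4 beyond counting error (median log2 fold -0.07), against 27.4% and 26.9% of all genes. CRABP2, a retinoic acid carrier, was at 8.92 CPM in GSK484, 12.5 CPM in CON and 9.89 CPM in NT (log2 fold against CON -0.49, interval -0.63 to -0.35). RDH5, a retinol dehydrogenase, was at 1.02 CPM in GSK484 and 1.39 CPM in CON (-0.44, interval -0.86 to -0.02), with divided reads. STRA6, a retinol uptake receptor, was at 2.34 CPM in GSK484 and 2.87 CPM in CON (-0.30, interval -0.58 to -0.02). RDH5 (interval -0.73 to 0.11) and STRA6 (interval -0.56 to 0.0029) were within counting error with the trend removed. Against NT, 3 of the 18 were lower and 5 higher, against 29.5% and 27.3% of all genes, with a median of 0.02 that became -0.04 with the trend removed. In TPM the retinoid median against CON was 0.04, below the 0.10 of all genes compared.

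Of 14 aryl hydrocarbon receptor and NRF2 genes found, which include the regulators and fellow targets of ALDH3A1, 12 reached 1 CPM. Against CON, GSK484 was lower in 5 and higher in 4 (27.4% and 26.9% among all genes), with a median log2 fold of -0.03, or -0.09 with the trend removed. CYP1B1, another receptor target, was at 2.49 CPM in GSK484, 3.66 CPM in CON and 4.10 CPM in NT (against CON -0.55, interval -0.82 to -0.30). SLC7A11, a cystine transporter, was higher than in CON (0.62, interval 0.54 to 0.71) and lower than in NT (-0.33, interval -0.41 to -0.26). With the GC and length trend removed it was at 0.26 against CON, and within counting error of NT at -0.06 (interval -0.14 to 0.02). NFE2L2, which encodes NRF2 and had divided reads, was at 70.3 CPM in GSK484, 53.7 CPM in CON and 76.6 CPM in NT. GSK484 was thus above CON (0.39, interval 0.33 to 0.44) and below NT (-0.12, interval -0.18 to -0.07). Against NT 9 of the 12 were lower and 0 higher, where 29.5% of all genes were lower and 27.3% higher. The median of the 12 was -0.14, or -0.07 with the trend removed. CON also lay below NT for this list, with 6 lower and 2 higher, where 29.4% of all genes were lower and 35.5% higher. Its median against NT was -0.19, or -0.03 with the trend removed.

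Enzymes of fatty aldehyde, fatty acyl and sphingolipid metabolism, listed around the lipid aldehydes that ALDH3A2 oxidises, all reached 1 CPM. GSK484 was above CON in 5 of the 10 and below it in 2 beyond counting error, set beside 26.9% and 27.4% of all genes, at a median log2 fold of 0.17 that became 0.08 once the trend on GC and length was taken out. ACSL4, a long-chain acyl-CoA synthetase, was at 43.5 CPM in GSK484, 28.9 CPM in CON and 54.8 CPM in NT (against CON 0.59, or 0.33 with the trend removed), with divided reads. FAR1, a fatty acyl-CoA reductase, was at 54.7 CPM in GSK484, 39.1 CPM in CON and 68.2 CPM in NT (0.48, or 0.03 with the trend removed). SGPP1, a sphingosine phosphate phosphatase, was at 13.4 CPM in GSK484, 11.0 CPM in CON and 15.8 CPM in NT (0.29, or 0.14 with the trend removed). In CPM, CON was the lowest library for all 3, which were chosen by the size of their fold between GSK484 and CON. With the trend removed, FAR1 was within counting error for GSK484 against CON (interval -0.04 to 0.09) and CON against NT (interval -0.12 to 0.01). ACSL4 and SGPP1 stayed beyond it in both comparisons.

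Alcohol dehydrogenases and other aldehyde-handling enzymes had 9 of 18 genes at 1 CPM, with 5 lower and 1 higher against CON, where all genes gave 27.4% and 26.9%. The median log2 fold was -0.06, or -0.0073 with the trend removed. AOX1, an aldehyde oxidase, was at 2.41 CPM in GSK484, 1.76 CPM in CON and 2.83 CPM in NT. GSK484 was higher than CON at 0.45 (interval 0.14 to 0.76) and within counting error of NT at -0.23 (interval -0.53 to 0.06). The aldo-keto reductase AKR1B10 (-0.22, interval -0.38 to -0.06) and the carbonyl reductase CBR1 (-0.13, interval -0.18 to -0.08), both with divided reads, were lower than in CON. With the trend removed both were within counting error, AKR1B10 at -0.12 (interval -0.28 to 0.04) and CBR1 at -0.01 (interval -0.06 to 0.04). In TPM the list's median was 0.07, below that of all genes compared. Lysine and betaine genes around ALDH7A1 had 7 of 10 at 1 CPM, with 2 lower and 2 higher (all genes 27.4% and 26.9%) and a median of -0.11. AASDHPPT, a phosphopantetheinyl transferase with divided reads, was at 35.4 CPM in GSK484, 30.5 CPM in CON and 41.4 CPM in NT. Against CON it was at 0.22 (-0.08 with the trend removed), and DHTKD1, a dehydrogenase of lysine breakdown, was at -0.17.

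By the markers listed, the libraries had an epithelial profile. All 5 epithelial markers and all 4 basal markers reached 1 CPM, with summed levels of 10282 to 10769 CPM and 1924 to 2263 CPM over the 3 libraries. Most of the epithelial sum came from KRT8 and KRT18, at 5471 and 4743 CPM in GSK484. KRT19 was at 2.38 CPM in GSK484, 3.23 CPM in CON and 3.13 CPM in NT. KRT5, a basal keratin, was at 1453 CPM in GSK484, 1212 CPM in CON and 1287 CPM in NT. TP63 was at 34.7 CPM in GSK484, 31.5 CPM in CON and 34.2 CPM in NT. KRT14 was lowest in GSK484, at 9.58 CPM against 11.9 CPM in CON and 10.2 CPM in NT. ITGA6 was at 765.4 CPM in GSK484, 668.2 CPM in CON and 808.6 CPM in NT, so the basal markers had no common direction. Of 5 fibroblast markers, 1 reached 1 CPM (COL1A1, a collagen gene), and the list summed to 5.99 to 7.63 CPM, with DCN and LUM at 0. Among the leukocyte markers, CD14 reached 1 CPM, while PTPRC and CD3E were at 0. Endothelial markers summed to 0.937 to 1.59 CPM over the 2 of 3 found, of which 1 reached 1 CPM. Adipocyte markers summed to 2.04 to 2.60 CPM, with 1 of 3 at 1 CPM and ADIPOQ at 0. Hepatocyte markers stayed at or below 0.0899 CPM in sum. The part of these markers in the differences above was not tested.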

How the data were processed

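Per the labels, RNA was extracted with TRIzol and read as pairs of 125 bases from stranded total RNA libraries. Per the file headers, the authors deposited the expected count of each gene (its estimated reads, not normalized), its TPM and its FPKM. The submitters' processing notes name RSEM and hg19. Neither RSEM's version nor the aligner, annotation release or strand setting is given in the sources used here. FPKM was not used.

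TMM factors (edgeR 4.0.16, R 4.3.3) were 1.01 for GSK484, 0.98 for CON and 1.01 for NT. A prior count of 0.5, adjusted for library size, entered each log2 fold. Intervals were exact conditional binomial (Clopper-Pearson) at 95%, on expected counts rounded to whole numbers, and PCR copies were not separable. As a 1-sided 95% limit, a count of 0 allows about 3 counts, or 0.0385 CPM (GSK484), 0.0329 CPM (CON) and 0.0421 CPM (NT). Genes with a CPM of at least 1 in either library were compared, and called beyond counting error at 2-fold, at an absolute log2 fold of 0.32 or at any fold. With 1 library per group no test between conditions was run. TPM folds used log2(TPM + 0.1). A spline trend on GC and effective length was fitted to 8648 coding genes reaching 10 CPM, with GC known for 97.2% of measured genes. Symbols were matched by gene ID to a name table and to GENCODE release 29, which belongs to another build and gave names, transcript words and GC only.

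All 10 members are described whatever their value, with up to 3 genes of each other list by the largest absolute log2 fold against CON beyond counting error, and cell markers. A gene of the lysine and betaine list, and a leukocyte marker with the sum of its list, are not reported here. Members and lists were chosen with earlier results of these data known. Alternatives were DESeq2 1.42.0 size factors, upper-quartile factors, total counts alone, TPM, prior counts of 2 and 5, other fold and CPM minimums, and the trend removed.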

Additional observations from a re-analysis of the deposited data

How the results depend on the processing

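For GSK484 against CON, total counts alone gave 2 members lower and 1 higher beyond counting error in place of 4 and 0, and removing the GC and length trend gave 2 higher, ALDH1B1 and ALDH7A1. ALDH3A2 turned to 0.0043 with total counts and to 0.10 with TPM, and ALDH1A3 to 0.037 with TPM. For GSK484 against NT, a fold minimum of 1.5 called 1 member, ALDH3B2, where 2-fold called 0. For CON against NT, total counts and the removed trend each gave 0 higher members in place of 1. Upper-quartile factors gave 0 lower and 4 higher in place of 2 and 1, with ALDH1A3 at 0.0091 and ALDH3A2 at 0.031. ALDH3A1 turned to -0.058 with the trend removed and to -0.021 with TPM. Without a CPM minimum, 1 member passed 2-fold in CON against NT, which was ALDH2 with 1 count in CON and 7 in NT. The cause was not tested for any of these. DESeq2 size factors gave 3 lower against CON in place of 4, without ALDH3A2, at -0.028. Against NT, a CPM minimum of 5 and upper-quartile factors each gave GSK484 4 lower members in place of 5. The first left out ALDH3B2 and the second ALDH3B1, at -0.11. No other such count changed with DESeq2 size factors, prior counts of 2 and 5 or a CPM minimum of 5. No member changed place in the order of levels under TPM or a mean effective length. Of 168 single-member values over these alternatives, 7 changed sign after a difference beyond counting error. Another 29 left the counting interval and 132 stayed within it. The 132 include all values with prior counts of 2 and 5, which could hardly move folds resting on 90 or more counts a library.

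No paired analysis was possible because each group has 1 library. At this depth counting error leaves ALDH1A3 an interval of -0.06 to -0.04 against CON, but ALDH3B2 one of -0.74 to 0.06.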
